A study of Rattus norvegicus with 43 samples.

Results

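The comparison described here follows A7r5 cells, a vascular smooth muscle line from rat aorta, from day 14 to day 21 in folate-deficient medium. It sets the 5 arrays of day 21 against the 5 arrays of day 14, all from cells kept in 2.5 ng/ml folic acid, which makes 10 of the 43 arrays of the series. The other arrays came from the same cells at day 7 and from media with 10 ng/ml (sufficient) or 100 ng/ml (excess) folic acid. They serve to show where the deficient cells differ. They also enter the filter, the choice of probe sets and the shared estimate of spread behind the tests. Total RNA was hybridised to Affymetrix Rat230_2 arrays, whose short probes read mostly the 3′ ends of transcripts. All groups are one cell line in custom DMEM. Whether the 5 replicates of a group grew in dishes of their own is not stated, and the p-values therefore reflect sample-to-sample spread that could be purely technical. Nothing in the labels ties the day 21 cells to the same dishes as the day 14 cells.

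Folate carries single carbon units for the synthesis of thymidylate and purines and, through methionine, for methylation. Mitochondrial serine hydroxymethyltransferase and its partner enzymes load these units onto folate from serine. Smooth muscle cells in culture move between a dividing, matrix-making state and a quiet state rich in contractile proteins. BMP and TGF-beta signals, which drive the Id genes, and serum response factor, which drives immediate early and contractile genes, take part in that shift.

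Each gene was represented by 1 probe set, and values are the authors' log2 expression values. Of 14217 genes on the array, 9093 passed a filter that asked for a value above 4 in at least 4 of the 43 arrays. Values below 4 lie near background, where a difference understates the true ratio. Levels are given as mean ± SD over 5 arrays, and levels of deficient cells at day 7 as the mean of 4 arrays. Changes are given as the difference of day 21 minus day 14 ± SE from a limma model over all 43 arrays. A gene was called when its adjusted p was below 0.05.

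The 10 arrays were not uniform. On the first principal component, which held 61.0% of the variance, the days lay apart. On the second, with 15.1%, day 14 replicates 1 and 5 scored 15.5 and 18.3, while day 14 replicates 2, 3 and 6 lay between -7.76 and -7.65 and the day 21 arrays between -5.01 and 1.23. Replicates 1 and 5 both exceeded the other day 14 arrays in 2845 genes and both fell below them in 1832. Their 3′ minus 5′ differences of the Gapdh control probe sets, a reading of RNA integrity, were 0.15 and 0.087, against 0.29 to 0.33 in the other day 14 arrays and 0.18 to 0.26 at day 21. For beta-actin these differences were 1.49 to 1.70 at day 14 and 1.54 to 1.79 at day 21. By its title, day 14 replicate 5 had serial number 48. The other day 14 arrays had serials from 16 to 20 and the day 21 arrays from 31 to 35. The split at serial 45, above which 11 of the 43 arrays lie, is called the array series below. The labels do not say what it marks. The part of these features in the gene results was not tested. The list counts of this comparison were also computed without replicates 1 and 5, and the second counts are given where they differ.

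**Figure D1:**
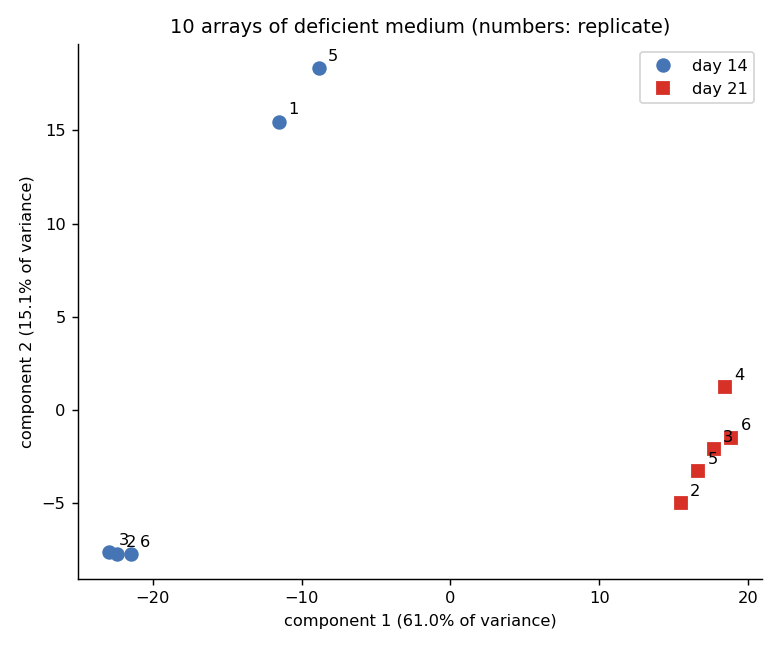
Scores of the 10 arrays of deficient medium on the first (horizontal, 61.0% of variance) and second (vertical, 15.1%) principal component of the 9093 genes, labelled by replicate number. Day 21 arrays (squares) form one group, and day 14 arrays (circles) fall into replicates 2, 3 and 6 and replicates 1 and 5.

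The smooth muscle label was met: 8 of 8 smooth muscle markers on the array passed the filter. Their mean level ranged from 9.89 to 10.39 over the day 14 arrays and from 10.33 to 10.37 over the day 21 arrays, and 2 rose and 0 fell, or 2 and 2 without replicates 1 and 5. Of 14 macrophage and leukocyte markers 0 passed the filter, of 10 endothelial markers 1, of 10 epithelial markers 2, of 8 adipocyte markers 1 and of 9 fibroblast markers 3. The endothelial marker, Vwf, lay at 3.99 ± 0.09 on day 14 and 3.74 ± 0.16 on day 21, near background (adjusted p = 0.019, and 0.11 without replicates 1 and 5 or 0.084 without day 21 replicate 2). Of the fibroblast markers, Thy1 rose by 0.83 ± 0.09 and Pdpn by 0.34 ± 0.09 while S100a4 fell by 0.20. The keratin Krt8 rose from 7.98 ± 0.11 to 9.00 ± 0.10.

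Between day 14 and day 21 in deficient medium, 3530 genes changed, which is 38.8% of the genes tested. Of these, 1898 were higher at day 21 (20.9% of genes tested) and 1632 lower (17.9%). Most changes were small. At least 1.5-fold was reached by 802 called genes, and at least 2-fold by 193, of which 119 rose and 74 fell. The median change over all genes was 0.01 and the median SE 0.10. Values of all 5 arrays of one day lay above all 5 of the other in 1389 genes that were higher at day 21 (15.28%) and 1144 that were lower (12.58%). Without day 14 replicates 1 and 5, 2109 genes were higher (23.2%) and 1730 lower (19%), and 3090 of the 3530 genes were called again. The list counts below are to be read beside these shares.

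Among the 10 largest rises were Scg2, Mgp and Ccl2. Scg2, a protein of secretory granules, read 9.41, 9.49, 9.41, 9.44 and 9.43 at day 14 and 11.87, 11.90, 11.89, 11.87 and 11.80 at day 21. The 2 sets of arrays were far apart and tight, and the change of 2.43 ± 0.10, or 5.40-fold, had the smallest adjusted p of all genes (4.5e-21). Mgp, the matrix Gla protein that inhibits vascular calcification, read 8.65, 8.85, 8.77, 9.12 and 9.03 at day 14 and 11.13, 11.13, 11.17, 11.33 and 11.28 at day 21, a 5.01-fold rise. At day 7 its level was 5.69, so Mgp was higher at each later day. Ccl2, a chemokine that attracts monocytes, lay between 3.97 and 4.60 at day 14 and between 6.16 and 7.73 at day 21. It changed by 2.80 ± 0.23 from a level near background, and its day 21 arrays were the most scattered of these genes.

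Other genes among the 10 largest rises were Tcim (2.70 ± 0.17), Art3 (2.58 ± 0.14), Olfml2b (2.36 ± 0.16), the myosin Myh2 (2.35 ± 0.17), Entrep1 (2.27 ± 0.14) and the LIM-domain protein Lmcd1 (2.22 ± 0.10). Mlana had the largest difference of all, 3.43 ± 0.19, but its day 14 level of 2.56 ± 0.26 was at background. Entrep1 likewise started at 3.44. In all of these genes the day 21 arrays lay wholly above the day 14 arrays. This separation was required of the 10 largest rises and falls named here.

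Among the 10 largest falls were Id2, Serpinb7 and Atoh8. Id2, which binds and blocks helix-loop-helix transcription factors, read 11.88, 11.58, 11.57, 11.76 and 11.67 at day 14 and 8.92, 9.85, 9.75, 9.04 and 8.93 at day 21. The day 21 arrays fell into a lower trio and a higher pair, all below day 14, and the change of -2.39 ± 0.15 was a 5.26-fold fall (adjusted p = 2.0e-15). Serpinb7, a serine protease inhibitor, fell by 2.29 and Atoh8, a helix-loop-helix factor, by 2.19 to 4.17 ± 0.21. Car3, E2f8 and Dhrs3 fell by 1.64, 1.62 and 1.60, all to levels below 4.

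**Figure D2:**
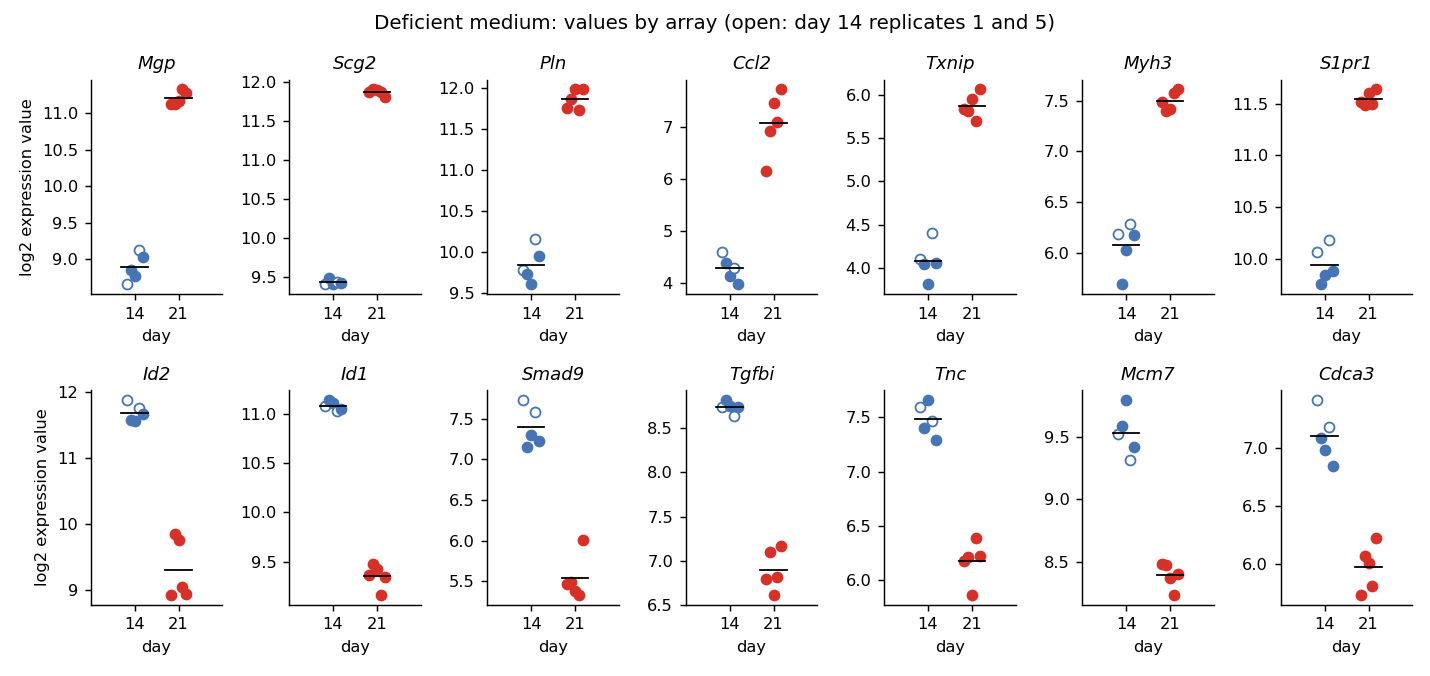
Log2 expression values (vertical axes, each with its own range) of 14 genes in the 5 day 14 and 5 day 21 arrays of deficient medium. Each point is an array, horizontal lines are means, and open circles are day 14 replicates 1 and 5. In none of the 14 genes do the 2 days overlap.

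Most genes of cell division fell. Of 55 tested genes of mitosis, 46 were lower at day 21 and 0 higher, with a median change of -0.51, and of 41 genes of DNA replication 32 were lower and 0 higher, with a median of -0.44. Over all genes 17.9% were lower and the median was 0.01. Without day 14 replicates 1 and 5 the counts of lower genes were 40 and 27. In RNA from whole cultures, fewer dividing cells and less of these transcripts per cell cannot be told apart. Cdca3, which triggers entry into mitosis, read 7.41, 7.08, 6.98, 7.18 and 6.84 at day 14 and 5.73, 6.07, 6.01, 5.81 and 6.22 at day 21, a 2.19-fold fall. Mcm7, a subunit of the replicative helicase, read 9.53, 9.59, 9.80, 9.32 and 9.42 at day 14 and 8.48, 8.47, 8.37, 8.23 and 8.40 at day 21, a 2.21-fold fall (adjusted p = 2.0e-14). In both genes the days were fully separate.

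Espl1, the separase that cuts sister chromatids apart, fell by 1.13, as did Cdca3. Ect2, which guides cytokinesis, and Dsn1, a kinetochore protein, each fell by 0.92. In replication, Pole, the catalytic subunit of the leading-strand polymerase, fell by 1.01, the chromatin assembly factor Chaf1a by 0.85 and the helicase subunit Mcm5 by 0.83. Mean levels were higher still at day 7: Mcm7 stood at 11.17 at day 7, 9.53 at day 14 and 8.39 at day 21.

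Among 17 regulators of the G1 phase, 8 fell and 1 rose, and 8 and 2 without replicates 1 and 5. E2f8 and E2f7, repressors within the E2F family, fell by 1.62 and 1.13 to levels near background. Mybl2, a transcription factor of dividing cells, read 5.92, 6.43, 6.78, 5.78 and 6.20 at day 14 and between 4.64 and 4.76 at day 21. Its day 14 values were widely spread and its day 21 values tight. Foxm1, which drives mitotic genes, fell by 0.90. Of 32 DNA repair genes, 12 fell and 2 rose (13 and 2 without these arrays), and the recombination genes Rad51ap1, Rad54l and Fancd2 fell by 0.97, 0.73 and 0.73 and the single-strand break protein Xrcc1 by 0.80.

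The promoters of the falling division genes are shown because the mitotic ones share short elements. The 250 bases before each start were read from RefSeq (GRCr8) for 27457 genes, 7714 of the tested genes among them, and searched on both strands. The cell-cycle homology region (TTTGAA) lay in 17 of the 41 promoters found for mitotic genes that fell (41.5%), against 9.98% of promoters of tested genes and 16% of all promoters. A CCAAT box (CCAAT) lay in 30 of the 41 (73.2%), against 36.7% and 34.3%, and both together in 16 (39%), against 3.93% and 5.76%. For mitotic genes as a whole, fallen or not, 21 of 49 promoters (42.9%) held both. An E2F word (TTTCCCGC or TTTGGCGC) lay in 4 of 28 promoters of replication genes that fell (14.3%), against 2.76% and 1.26%. For replication genes as a whole, fallen or not, 6 of 36 promoters (16.7%) held it. The windows below belong to the genes with the largest falls whose matches lie within 150 bases, with 10 bases on each side where the searched window allows. Capitals mark the matches, which appear reversed where they lie on the other strand, and in Gins1 the capitals are 2 overlapping E2F words. A match describes the letters and does not show that a factor binds there.
Espl1: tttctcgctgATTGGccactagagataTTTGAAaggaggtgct
Ect2: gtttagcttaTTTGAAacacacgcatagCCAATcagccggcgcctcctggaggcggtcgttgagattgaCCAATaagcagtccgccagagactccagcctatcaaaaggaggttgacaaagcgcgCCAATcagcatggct
Spc25: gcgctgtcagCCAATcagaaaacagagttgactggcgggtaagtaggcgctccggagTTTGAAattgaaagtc
Mcm7: atttcgaaccGCGGGAAAtcgggtgccc
Gins1: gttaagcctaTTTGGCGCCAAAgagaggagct
They lie at chr7:135302606-135302648 on the plus strand, chr2:111966652-111966791 on the minus strand, chr3:74396760-74396832 on the minus strand, chr12:22163394-22163421 on the minus strand and chr3:160184885-160184916 on the plus strand, in that order (GRCr8). Spc25, a kinetochore gene, fell by 0.89, and Gins1, a subunit of the replicative helicase complex, by 0.62. Both were picked for their promoters.

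In the folate cycle, the genes that fell included mitochondrial enzymes and thymidylate synthase. Of 17 tested genes, 5 fell and 3 rose, with a median change of -0.09. Shmt2, the mitochondrial serine hydroxymethyltransferase, read 8.27, 8.80, 8.76, 8.11 and 8.54 at day 14 and 7.22, 7.14, 7.47, 7.13 and 7.28 at day 21. The days did not overlap, although replicates 1 and 5 were the lowest of day 14, and the change of -1.25 ± 0.13 was a 2.37-fold fall. Mthfd1l, the mitochondrial formyltetrahydrofolate synthetase, fell by 1.01 to 4.09 ± 0.18, close to background, and Mthfd2, its neighbour in the pathway, by 0.53. Tyms, thymidylate synthase, read 5.92 to 6.36 at day 14 and 5.15 to 5.65 at day 21, a fall by 0.78, and cytosolic Shmt1 fell by 0.33.

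Other folate genes rose or did not pass the test. The folate receptor Folr1 read 4.34, 4.30, 4.25, 4.17 and 4.03 at day 14 and 4.68, 4.68, 4.63, 4.65 and 4.47 at day 21. That is a small rise of 0.40 ± 0.11 (adjusted p = 0.0043) just above background. Aldh1l1, which oxidises formyltetrahydrofolate, rose by 0.60. The reduced folate carrier Slc19a1 differed by -0.15 (adjusted p = 0.28) and Mthfd1, the cytosolic trifunctional enzyme, by -0.08 (adjusted p = 0.37). Mtr, methionine synthase, did not pass the filter.

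Neighbouring one-carbon and nucleotide pathways were mixed. In the methionine cycle, transsulfuration and polyamine list, 6 of 18 genes rose and 5 fell. Apip, of the methionine salvage pathway, rose by 0.81, Sat1, which breaks down polyamines, by 0.71 and Cth, which makes cysteine, by 0.63, while Gclc, the catalytic subunit of glutathione synthesis, fell by 0.63. Of 20 purine and pyrimidine genes, 5 fell and 1 rose, and 6 and 1 without replicates 1 and 5. Tk1, the thymidine kinase of S phase, fell by 1.05, Cad, which starts pyrimidine synthesis, by 0.79 and Nme1 by 0.44, and Ctps2, a CTP synthase, rose by 0.72. Enzymes of DNA and histone methylation numbered 6 higher and 6 lower of 28 (21.4% each), beside 20.9% and 17.9% of all genes. Without replicates 1 and 5 these counts were 6 and 10, beside 23.2% and 19% of all genes. Ezh2, the methyltransferase of the Polycomb complex found in dividing cells, fell by 0.83 and its relative Ezh1 rose by 0.68. The maintenance DNA methyltransferase Dnmt1 fell by 0.57, and Tet2, which oxidises methylcytosine, rose by 0.46 from 4.07.

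Many genes of amino acid supply fell. Of 27 genes of serine and asparagine synthesis, amino acid transport and tRNA charging, 17 were lower and 1 was higher, with a median of -0.26, and without replicates 1 and 5 the count of lower genes was 15. Phgdh, the first enzyme of serine synthesis, read 10.60, 10.97, 11.00, 10.42 and 10.81 at day 14 and 9.79, 9.84, 9.82, 9.92 and 9.84 at day 21. All day 21 arrays were lower and close together, for a 1.89-fold fall. The cystine carrier Slc7a11 fell by 0.86 to 3.51, near background, the branched-chain aminotransferase Bcat1 by 0.78 and the cysteinyl-tRNA synthetase Cars1 by 0.74.

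Of 17 regulators of the integrated stress response, 8 fell and 1 rose. The transcription factor Atf5 fell by 0.77, Chac1, which degrades glutathione, by 0.64, and the pseudokinase Trib3 and the growth inhibitor Sesn2 by 0.49 each. Ddit3, the transcription factor CHOP of the same pathway, moved the other way, from 9.52 ± 0.11 to 9.96 ± 0.10. Its rise of 0.44 ± 0.11 (adjusted p = 0.0012) came with day 21 arrays that all lay above day 14. Of 21 chaperones and other genes of the endoplasmic reticulum, 6 fell and 2 rose (7 and 3 without replicates 1 and 5), led by Sdf2l1 (a fall by 0.79). Hyou1 and Syvn1 fell by 0.76 and 0.50 with overlapping days, and the oxidase Ero1a rose by 0.46.

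The composite element of ATF4 and C/EBP proteins (TGATGNAA) is shown for these 2 lists because it recurs in them. It lay in 5 of the 15 promoters of amino acid genes that fell (33.3%) and in 4 of the 8 of stress regulators that fell (50%), against 1.67% of promoters of tested genes and 3.27% of all promoters. Of tested amino acid genes, fallen or not, 8 of 24 promoters (33.3%) held it, and of tested stress regulators 4 of 16 (25%). Examples from genes that fell are shown, with matches in capitals, each window on the strand of the gene.
Slc7a1: ggcgcgcggcTGATGAAAccggctcgga
Iars1: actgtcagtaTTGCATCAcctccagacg
Slc1a4: gcctccagcgTTGCATCAtccagccagc
Tars1: tggcgtcccgTTGCATCAgctggttagc
Chac1: ttctccgccgTTGCATCActcctgctag
Trib3: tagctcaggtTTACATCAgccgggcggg
Herpud1: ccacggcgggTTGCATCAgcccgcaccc
Nupr1: aaaggccagaTTGCATCAgacagggctt
Slc7a1 carries the word on the strand of the gene and the other genes on the opposite strand. Their GRCr8 positions are chr12:11664448-11664475 (plus strand), chr17:15193659-15193686 (minus), chr14:98761780-98761807 (minus), chr2:62114812-62114839 (minus), chr3:126795954-126795981 (plus), chr3:161275537-161275564 (minus), chr19:10614874-10614901 (minus) and chr1:190645939-190645966 (minus). Of the genes not yet described, the arginine carrier Slc7a1 fell by 0.50, the neutral amino acid carrier Slc1a4 by 0.40 and the stress gene Herpud1 by 0.41. The tRNA synthetases Iars1 and Tars1 fell by 0.46 and 0.21, and Nupr1 fell by 0.15. These 6 genes were picked for the element.

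Id1, Smad9 and Tgfbi fell by over 3-fold. Of 32 genes of the TGF-beta and BMP pathway, 15 were lower and 6 higher, and these counts were the same without replicates 1 and 5. Id1, a close relative of Id2 and a direct BMP target, read 11.08, 11.14, 11.11, 11.03 and 11.05 at day 14 and 9.36, 9.48, 9.42, 9.16 and 9.34 at day 21. Both days were tight and far apart, a 3.32-fold fall (adjusted p = 2.1e-16). Smad9, a transducer of BMP signals, read 7.15 to 7.73 at day 14 and 5.46, 5.49, 5.38, 5.33 and 6.01 at day 21, and replicate 6 of day 21 stood above the other day 21 arrays. Tgfbi, a matrix protein induced by TGF-beta, read 8.64 to 8.82 at day 14 and 6.61 to 7.17 at day 21, a 3.58-fold fall.

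Genes of smooth muscle contraction showed no shared direction. Of 28 tested, 7 rose and 4 fell, with a median of 0.04, and without replicates 1 and 5 the counts were 7 and 8, with a median of -0.02. Pln, phospholamban, which restrains the calcium pump of the sarcoplasmic reticulum, read 9.78, 9.73, 9.61, 10.16 and 9.96 at day 14 and 11.76, 11.87, 11.98, 11.73 and 11.98 at day 21. It was 4.04-fold higher at day 21, with no overlap. Sgca, alpha-sarcoglycan of the muscle membrane, rose by 1.44 and Mylk, the myosin light chain kinase that starts contraction, by 0.97 ± 0.07. Among the 8 smooth muscle markers, the myosin Myh11 rose by 0.84 and desmin (Des) by 0.64, and the other 6 did not pass the test. The median of these markers was 0.08. Without replicates 1 and 5, 2 markers rose and 2 fell, with a median of -0.08. Csrp2, a LIM protein of immature smooth muscle, fell by 1.10.

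Sarcomere and other genes of skeletal and cardiac muscle moved in both directions, and those named here, picked by size of change, rose. Of 31 tested, 14 rose (45.2%) and 8 fell (25.8%), beside 20.9% and 17.9% of all genes. The median was 0.28, and without replicates 1 and 5 the counts were 14 and 7. Embryonic myosin Myh3 read 6.19, 5.69, 6.03, 6.28 and 6.18 at day 14 and 7.49, 7.40, 7.42, 7.58 and 7.61 at day 21. The days were separate, and the change of 1.43 ± 0.12 was 2.69-fold. Its level at day 7 was 3.78, below the filter value. Fast myosin Myh2 read 4.58, 3.95, 3.98, 4.86 and 4.39 at day 14 and 6.70, 6.38, 6.65, 6.53 and 7.23 at day 21, a rise by 2.35 from near background. Tnnt1, slow troponin T, rose by 1.63 ± 0.15 and Myl4, the atrial light chain, by 1.51 ± 0.09. Near-identical myosin genes can share probes, so the identity of single myosins is uncertain.

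Several genes of calcium handling rose. Of 14 tested channels and pumps, 6 were higher and 0 lower, and without replicates 1 and 5 the counts were 6 and 3. The sodium-calcium exchanger Slc8a1 rose by 0.78, the cation channel Trpc6 by 0.48 and the calcium release channel Itpr1 by 0.45. The calcium sensor Stim1 rose by 0.55 on its main probe set, and 1 of 3 probe sets of this gene pointed the other way. Of 20 growth factors and vasoactive receptors, 5 rose and 5 fell, and without these arrays 4 and 8. S1pr1, a receptor for sphingosine phosphate, read 10.06, 9.75, 9.84, 10.18 and 9.88 at day 14 and 11.52, 11.49, 11.61, 11.50 and 11.64 at day 21, which is 3.06-fold higher with no overlap. Its relative S1pr3 rose by 1.20 and the neurotrophin Ntf3 by 1.23. Edn1, the precursor of the vasoconstrictor endothelin, fell by 1.16 to 4.08 ± 0.25.

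Inflammatory and immediate early genes were more often higher than lower. Of 20 tested inflammatory genes, 9 rose and 2 fell, with a median of 0.15, and 8 and 3 without replicates 1 and 5. Besides Ccl2, the NF-kappa-B inhibitor Tnfaip3 read 5.75, 5.45, 5.38, 5.83 and 5.52 at day 14 and 6.92, 6.97, 7.29, 7.20 and 7.30 at day 21. Every day 21 array was higher, by 1.55 ± 0.12 on average. The complement protease C1s rose by 1.08 and Ccl7, a chemokine related to Ccl2, by 0.99 to 4.07. Of 24 immediate early genes, 12 rose and 4 fell, with a median of 0.26. Egr1, an early response transcription factor, read 8.90, 9.06, 8.36, 9.03 and 9.10 at day 14 and 9.76 to 10.25 at day 21, with replicate 3 of day 14 low. Fos rose by 0.90 with overlapping days, Nr4a3 by 0.76 and Nr4a1 by 0.73.

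Interferon response genes numbered 6 higher and 2 lower of 15, and 5 and 1 without replicates 1 and 5. Stat2 rose by 0.73, the immunoproteasome subunit Psmb9 by 0.54 and the GTPase Igtp by 0.48. Irgm differed by -0.71 (adjusted p = 0.025) with overlapping days, and by -1.15 without replicates 1 and 5. Its call was lost without day 14 replicate 2, 3 or 6 or day 21 replicate 4 or 5, with adjusted p up to 0.092. Of 34 antioxidant genes, 10 rose and 7 fell, and 9 and 9 without replicates 1 and 5. Hmox1, heme oxygenase, read 10.23 to 10.39 at day 14 and 11.27 to 11.62 at day 21, a 2.26-fold rise, and the conjugating enzymes Gsta4 and Mgst3 and the oxidase Aox1 rose by 0.94, 0.91 and 0.91. Of 38 lysosome and autophagy genes, 16 rose and 2 fell, with a median of 0.15, and 14 and 4 without replicates 1 and 5. Scarb2, a lysosomal membrane protein, rose by 0.85 and the cathepsins Ctsh and Ctsf by 0.60 and 0.56. Gla differed by 0.41 on the probe set used (adjusted p = 0.025), but not on the second of its 2 probe sets, which pointed the other way. Its call was lost without day 14 replicate 2, 3 or 6 or day 21 replicate 4 or 6, with adjusted p up to 0.11.

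Collagens fell more often than they rose. Of 25 tested genes of collagens and their processing, 13 fell and 2 rose, with a median of -0.24, and without replicates 1 and 5 the counts were 16 and 1. Col5a3 fell by 0.96 and Col11a1, of fibril nucleation, by 0.90. Col3a1, a main fibrillar collagen of the vessel wall, fell by 0.59 with overlapping days, and Col6a3, of microfibrils, rose by 1.08. Of 29 other matrix genes, 7 rose (24.1%) and 8 fell (27.6%), beside 20.9% and 17.9% of all genes. Without replicates 1 and 5 these matrix counts were 4 and 5. Tnc, tenascin C of remodelling tissue, read 7.29 to 7.66 at day 14 and 5.86 to 6.39 at day 21, a 2.48-fold fall. Ogn, osteoglycin, fell by 1.13 to 3.42, and Fbln2 by 0.81.

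Of 16 remodelling and fibrinolysis genes, 6 rose and 2 fell, and 5 and 3 without replicates 1 and 5. The proteases Adamts1 and Adamts4 rose by 0.69 and 0.64, the protease inhibitor Serpine2 by 0.68 and the protein C receptor Procr by 0.62. In the calcification list, 4 of 8 tested genes rose and 0 fell, and 3 and 0 without these arrays. Besides Mgp, the phosphate carriers Slc20a1 and Slc20a2 rose by 0.39 and 0.26, and Ankh, a pyrophosphate exporter, differed by 0.51 (adjusted p = 0.018). Without replicates 1 and 5 Ankh differed by 0.37 (adjusted p = 0.13) and without replicate 5 alone by 0.43 (adjusted p = 0.058), and 1 of 2 probe sets of Slc20a2 pointed the other way.

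Of 27 adhesion receptors, 5 rose (18.5%) and 7 fell (25.9%), beside 20.9% and 17.9% of all genes. Without replicates 1 and 5 the counts were 5 and 10, beside 23.2% and 19% of all genes. The cell adhesion molecule Ncam1 fell by 1.16, the semaphorin and growth factor receptor Nrp1 by 0.71 and the collagen receptor Itga11 by 0.63, while Itga1, another collagen receptor, rose by 0.78. Of 12 insulin-like growth factor genes, 3 rose and 1 fell, and 3 and 2 without these arrays. Igf2 rose by 1.00 and Igf1 by 0.54, and the receptor Igf2r fell by 0.40. Insr differed by 0.32 (adjusted p = 0.039), and by 0.25 without replicates 1 and 5 (adjusted p = 0.17). Its call was also lost without day 14 replicate 1 or 6 or day 21 replicate 2, 4, 5 or 6, with adjusted p up to 0.13. Of 14 Wnt and Notch genes, 3 rose and 2 fell, and without replicates 1 and 5 the counts were 3 and 4. Wif1, a Wnt inhibitor, rose by 0.39. Hey2, a Notch target, differed by 0.41 (adjusted p = 0.017), with an adjusted p of 0.080 without day 14 replicate 2 and 0.059 without day 21 replicate 6. Lef1 differed by -0.29, and by -0.22 (adjusted p = 0.12) without replicates 1 and 5. Tcf7l2 differed by 0.39, but 4 of 5 probe sets for the gene pointed the other way.

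Metabolic genes moved in both directions. Txnip, an alpha-arrestin that binds thioredoxin and limits glucose uptake, read 4.10, 4.05, 3.81, 4.40 and 4.06 at day 14 and 5.84, 5.81, 5.95, 5.70 and 6.06 at day 21. It was 3.46-fold higher at day 21 with no overlap. At day 7 its level was 5.30, so day 14 was the lowest of the 3 days. Of the 5 alpha-arrestins, 3 rose and 0 fell. Arrdc3 rose by 0.79 and Arrdc2 by 0.41, while Arrdc4 (0.27) and Arrdc1 (-0.19) did not pass.

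Of 29 genes of glycolysis and the hypoxia response, 11 rose and 5 fell, and 10 and 7 without replicates 1 and 5. The vasodilator peptide Adm rose by 0.97, the oxygen sensor Egln3 by 0.92 and the phosphofructokinase Pfkp by 0.80. The liver-type phosphofructokinase Pfkl read 6.03 and 5.98 in day 14 replicates 1 and 5, 8.16, 8.04 and 8.08 in replicates 2, 3 and 6, and 5.97 to 6.44 at day 21. Replicates 1 and 5 lay at the day 21 level. The change of -1.05 ± 0.40 (adjusted p = 0.036) was -1.89 without replicates 1 and 5. Its call was lost without day 14 replicate 2, 3 or 6 or day 21 replicate 2, 4, 5 or 6, with adjusted p up to 0.13.

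Replicates 1 and 5 were also low beside the other day 14 arrays in Pa2g4, a proliferation-associated protein, Hspg2, the matrix proteoglycan perlecan, and Hyou1. The mean of these arrays also lay below that of the other day 14 arrays in Irgm (-1.10) and Tns2 (-1.14). In Pa2g4 replicates 1 and 5 still lay above all day 21 arrays. Pa2g4 read 6.15 and 5.94 in replicates 1 and 5 and 7.61 to 7.94 in the other day 14 arrays, against 5.22 to 5.84 at day 21. Its change was -1.53 ± 0.38, and -2.24 without replicates 1 and 5. Hspg2 read 7.14 in both of these arrays and 8.51 to 8.92 in the others, with 6.84 to 7.52 at day 21. Hspg2 fell by 1.00 ± 0.37, or by 1.64 without them, and the change of Hyou1 was -0.76, and -1.27 without them. Leaving out day 14 replicate 2, 3 or 6 ended the calls of Hspg2 and Hyou1, with adjusted p up to 0.11 and 0.12, as did day 21 replicate 3, 4 or 6 for Hspg2 and 3, 4 or 5 for Hyou1.

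In the sterol and fatty acid list, 8 of 28 genes fell and 5 rose, and 8 and 6 without replicates 1 and 5. Insig1, which holds the sterol sensor in the endoplasmic reticulum and is itself induced when sterols are low, read 6.80, 7.11, 6.83, 6.71 and 6.98 at day 14 and 5.97, 5.70, 5.62, 5.68 and 5.87 at day 21. All day 21 arrays were lower, a 2.17-fold fall (adjusted p = 7.0e-14). Srebf2, the transcription factor of sterol synthesis, fell by 0.93 to 4.17, Sqle, squalene epoxidase, by 0.77 and Ebp, a sterol isomerase, by 0.58. Of 42 genes of the respiratory chain and ATP synthase, 4 rose and 3 fell (6 and 4 without replicates 1 and 5), and of 18 ribosomal proteins 1 rose and 0 fell, shares below those of all genes. Examples were Sdhc (0.41), Ndufb3 (0.25), Atp5f1b (-0.22), Sdha (0.20) and Rps3 (0.15). Ndufb3 lost its call without day 14 replicate 2, 3 or 6 or day 21 replicate 3 or 6 (adjusted p up to 0.085), and Atp5f1b without day 14 replicate 6 (0.050).

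Of 11 iron genes, 2 rose and 2 fell (18.2% each, beside 20.9% and 17.9% of all genes), and 3 and 3 without replicates 1 and 5. The transferrin receptor Tfrc fell by 0.66 and the metalloreductase Steap1 by 0.49. The metal carrier Slc39a14 rose by 0.38 and the ferroxidase Heph by 0.25. Of 18 p53 targets and arrest genes, 8 fell and 2 rose, and 6 and 2 without replicates 1 and 5. Cdkn2a, the locus of the p16 and ARF inhibitors, rose by 0.73 with overlapping days, while the nuclease Aen fell by 0.58, the kinase Plk2 by 0.53 and the inhibitor Cdkn2c by 0.47.

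**Figure D3:**
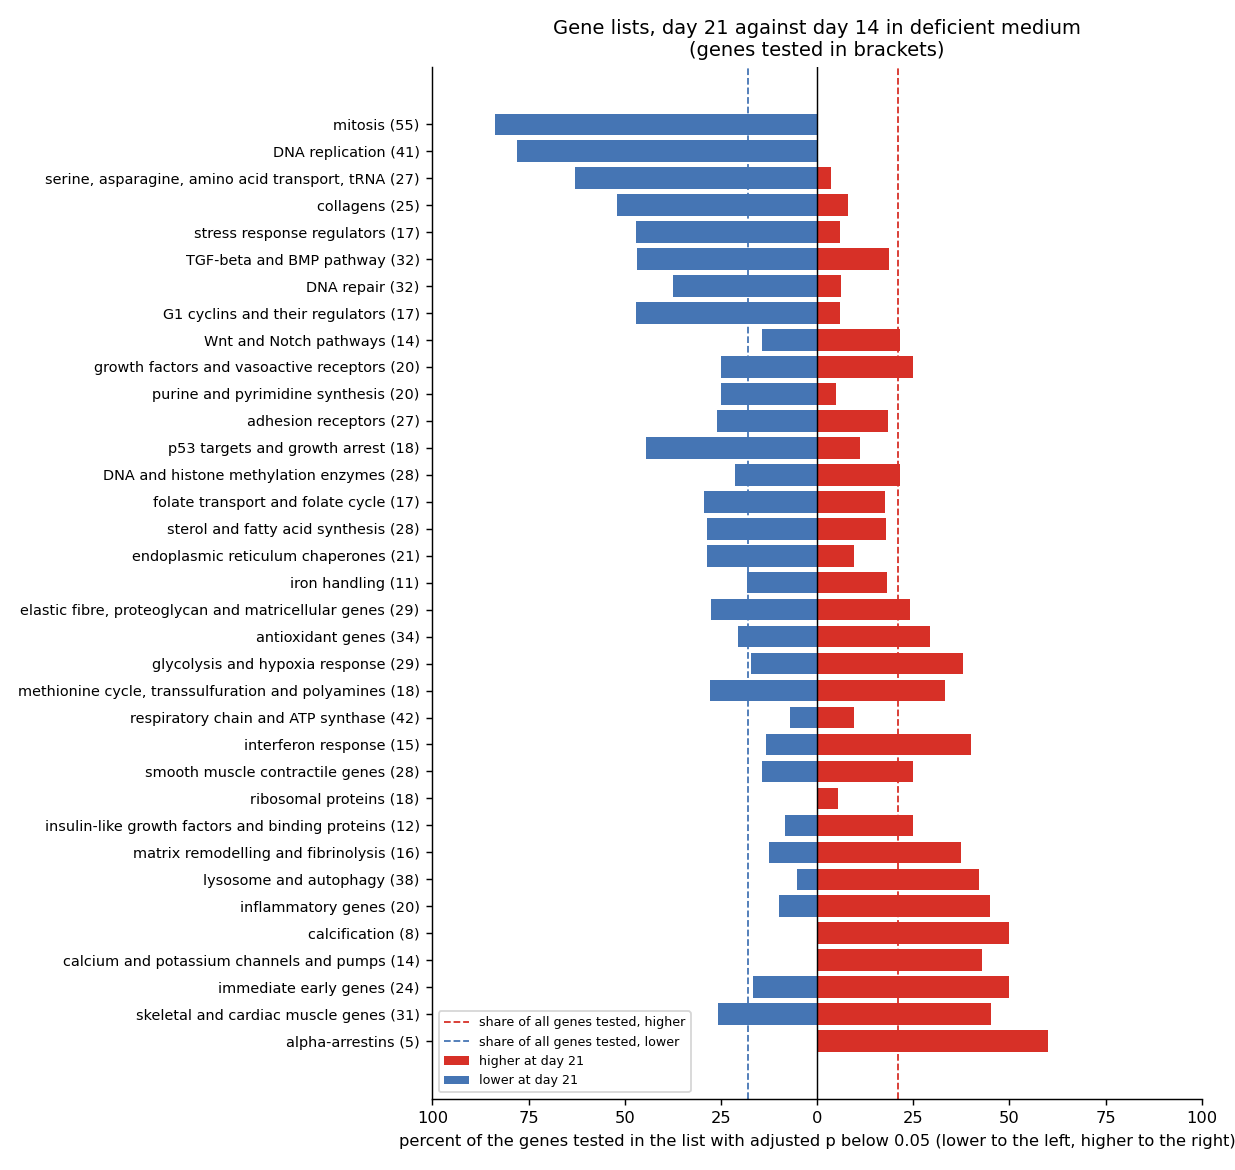
Percent of the tested genes of each of 35 lists that were higher (bars to the right) or lower (bars to the left) at day 21 than at day 14 in deficient medium, ordered by median change, with the number tested in brackets. Dashed lines mark the shares over all genes, 20.9% higher and 17.9% lower, and the bars of mitosis and DNA replication reach farthest to the left.

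The same week in sufficient medium gave similar changes. The means behind the 2 sets of changes come from different arrays, while the estimate of spread is shared. In sufficient medium 3147 genes changed (34.6%). Both media called 2435 genes, which is 69.0% of the deficient and 77.4% of the sufficient calls, and 0 of them moved in opposite directions. Across all 9093 genes, which are not independent, the 2 sets of changes had a Pearson correlation of 0.91. Over the 3530 genes called in deficient medium the median size of the change was 0.40 there and 0.33 in sufficient medium. The test of the difference between the 2 changes called 1 gene, which is 0.011% of genes tested, while 416 had an unadjusted p below 0.05. The 95% interval of the difference lay within 1.5-fold for 7696 genes and within 2-fold for 8982.

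The gene called was Myh3. It rose by 1.43 in deficient and by 0.49 in sufficient medium, a difference of 0.94 ± 0.16 (adjusted p = 0.011). At day 14 the levels were 6.07 ± 0.23 and 6.25 ± 0.11, and at day 21 they were 7.50 ± 0.09 and 6.74 ± 0.18. Without replicates 1 and 5 the difference was 1.05, and Myh2 was then called as well. Myh2 rose by 2.35 in deficient and 1.22 in sufficient medium, but this difference had an adjusted p of 0.19 with all arrays. Changes in deficient and sufficient medium side by side were, for example, those of Mgp (2.32 in each), Scg2 (2.43 and 2.50), Txnip (1.79 and 2.22), Id2 (-2.39 and -2.60), Shmt2 (-1.25 and -1.37), Phgdh (-0.92 and -1.02) and Mcm7 (-1.14 and -0.97). In the lists, mitosis had a median of -0.51 in deficient and -0.49 in sufficient medium, and DNA replication -0.44 and -0.36.

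**Figure D4:**
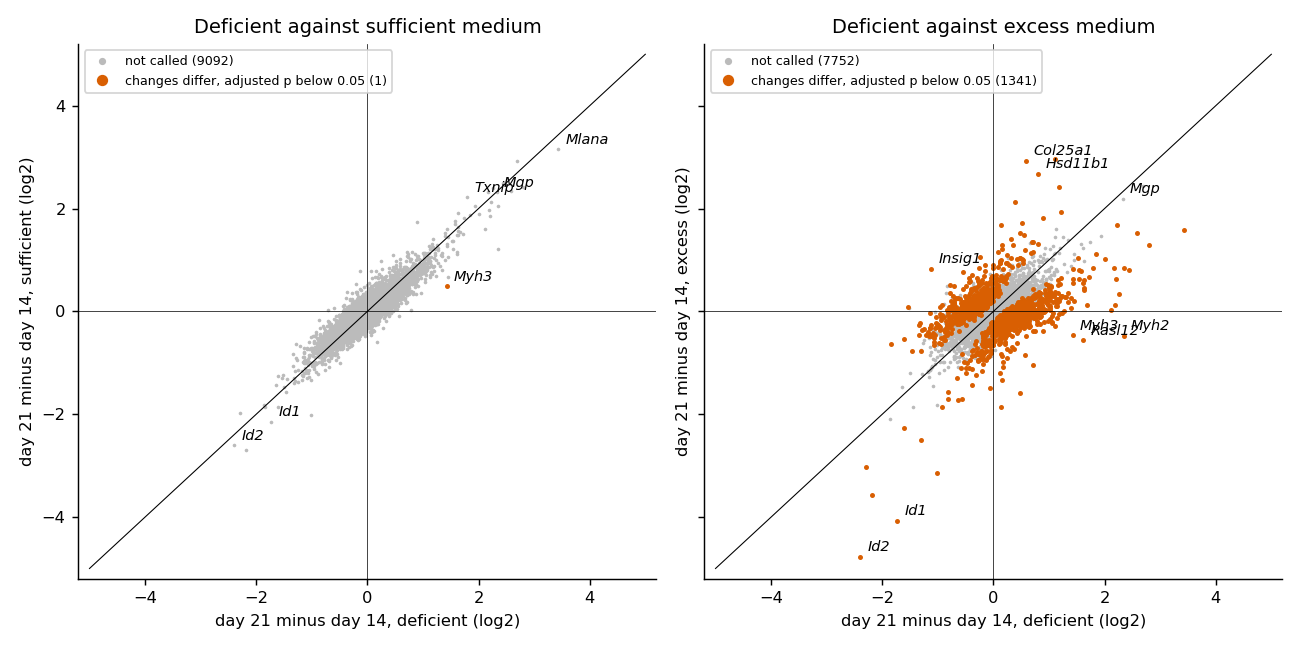
Change from day 14 to day 21 (log2) of 9093 genes in deficient medium (horizontal) against sufficient medium (left panel) and excess medium (right panel), with the line of equal change. Coloured points mark genes whose changes differ between media at an adjusted p below 0.05, 1 gene on the left and 1341 on the right.

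The change in excess medium was more different. There 2106 genes changed (23.2%), 1252 of which were also called in deficient medium (35.5% of the deficient and 59.5% of the excess calls), and 85 of these moved in opposite directions. Across genes the Pearson correlation was 0.55. The test of the difference called 1341 genes (14.7%), with 760 more positive in deficient medium (8.36%) and 581 more negative (6.39%). Of the 10 excess arrays, 4 belong to a block of serial numbers from 53 to 56 that holds no other medium, and 3′ minus 5′ beta-actin differences ran from 1.40 to 2.80 over the excess arrays. Excess arrays outside the block (serials 29 and 44) also read 2.37 and 2.30. Without this block the counts were 463 (5.09%) and 403 (4.43%). The total of 1341 became 1497 with the beta-actin difference as a covariate. It became 1019 without the excess arrays above all other media in that difference, a choice made after seeing the data. The part of the block and of the beta-actin difference in the result was not tested further.

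Several muscle genes rose more in deficient than in excess medium. Of the 31 sarcomere genes, 14 had a more positive change in deficient than in excess medium and 2 a more negative one, and 9 and 2 without the block. Of the 28 contractile genes the counts were 9 and 0, with or without it. Over all genes 8.36% were more positive and 6.39% more negative, and 5.09% and 4.43% without the block. Myh2 rose by 2.35 in deficient medium and differed by -0.47 in excess medium, a difference of 2.82 ± 0.24 (adjusted p = 4.3e-11). Myh3 changed by 1.43 and -0.46, Mylk by 0.97 and -0.19, Myh11 by 0.84 and 0.13, Pln by 2.02 and 1.01, and Tnnt1 by 1.63 and 0.60. Rasl12, a small Ras-like GTPase, rose by 1.61 and changed by -0.57, a difference of 2.18 ± 0.23. Also more positive in deficient medium were Rimklb (by 2.10), LOC100912310 (by 2.06) and Cyp2c11 (by 2.06), of which Cyp2c11 differed by 0.48 and -1.58. The deficient call of Cyp2c11 (adjusted p = 0.023) was lost without day 14 replicate 1, 2 or 6 or day 21 replicate 5 or 6, with adjusted p from 0.051 to 0.066. Without the block the differences of these genes were 2.70 for Myh2, 2.18 for Rasl12, 2.07 for Rimklb, 1.92 for LOC100912310 and 1.71 for Cyp2c11.

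The Id genes fell in both media but less in deficient medium. Id2 fell by 2.39 and by 4.77 in excess medium, and Id1 by 1.73 and 4.07. Their differences of 2.38 ± 0.22 and 2.34 ± 0.14 were 2.63 and 2.23 without the block. Starting levels were close for Id2, at 11.69 ± 0.13 in deficient and 11.27 ± 0.30 in excess medium. Prss35 fell by 1.01 and by 3.15, a difference of 2.14, and of 2.27 without the block.

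Some sterol genes had a more negative change in deficient than in excess medium. Of 28 tested, 10 had a more negative change in deficient medium and 0 a more positive one, and 11 and 0 without the block. Over all genes 6.39% were more negative, and 4.43% without the block. The median of the sterol list was -0.06 in deficient and 0.22 in excess medium. Insig1 fell by 1.12 in deficient and changed by 0.83 in excess medium, a difference of -1.95 ± 0.12 (adjusted p = 2.5e-15). Srebf2 fell by 0.93 in deficient medium and differed by 0.12 in excess medium, and Sqle fell by 0.77 and differed by 0.21. Without the block the difference of Insig1 was -1.91.

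Among genes with a more positive change in excess medium was Col25a1, a membrane collagen, with 0.58 in deficient and 2.93 in excess medium. Hsd11b1, which activates glucocorticoids, changed by 0.81 and 2.68, the nucleoside carrier Slc29a1 by 1.10 and 2.97, the apolipoprotein Apoc1 by 0.39 and 2.12, and the proteoglycan Lum differed by 0.14 (adjusted p = 0.61) and changed by 1.67. Without the block the differences were -2.27 for Col25a1, -1.97 for Hsd11b1, -1.94 for Slc29a1, -1.87 for Apoc1 and -1.55 for Lum. Col25a1, Apoc1 and Lum had mean levels below 4 on both days in deficient medium. Tns2 differed by -0.54 (adjusted p = 0.10) in deficient medium and by 0.76 in excess medium. Without day 14 replicate 5 the deficient value was -0.75 (adjusted p = 0.023), and without replicates 1 and 5 it had an adjusted p of 0.0038 and was 1.84 times as large. Pa2g4 differed by -1.53 and 0.09. The difference of Pa2g4 had an adjusted p of 0.035, of 0.12 without the excess block and of up to 0.081 when single arrays (day 14 replicate 2, 3 or 6, day 21 replicate 2, or excess day 14 replicate 3 or 4 or day 21 replicate 4 or 5) were left out.

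Of 17 folate genes, 3 had a more negative change in deficient medium and 0 a more positive one, and 1 and 0 without the block, beside 6.39% and 4.43% of all genes more negative with and without it. Shmt2 changed by -1.25 in deficient and -0.35 in excess medium, Tyms by -0.78 and 0.06, and Mthfd1l by -1.01 and -0.31. Of 55 mitotic genes, 9 had a more positive and 5 a more negative change in deficient medium, and 6 and 0 without the block. Over all genes 8.36% were more positive, and 5.09% without the block. The median of the mitotic list was -0.51 in deficient and -0.64 in excess medium. Mcm7 fell by 1.14 against 0.33, while Cdca3 fell by 1.13 and 1.10. Mgp rose by 2.32 and 2.19, Hmox1 by 1.17 and 1.14, and S1pr3 by 1.20 and 1.24, and these 3 differences did not pass the test.

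**Figure D5:**
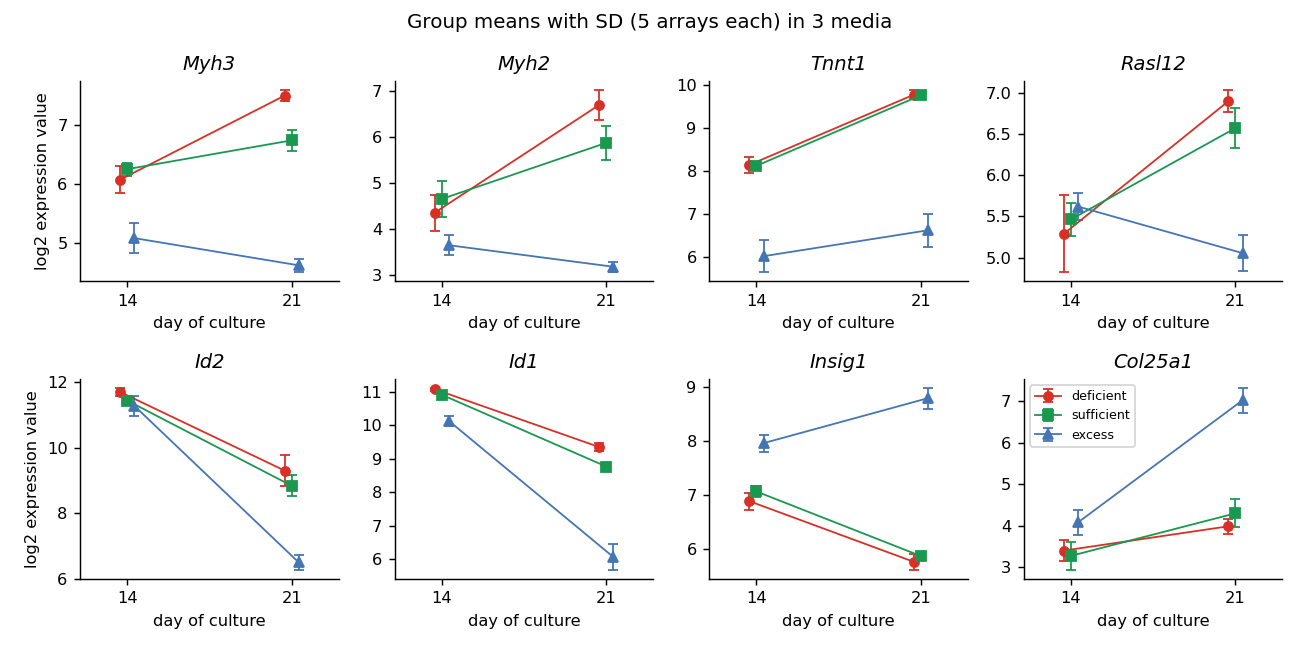
Mean log2 expression values of 8 genes at day 14 and day 21 in deficient, sufficient and excess medium (5 arrays each, error bars SD, axes with their own ranges). At day 21 Myh3 lies at 7.50 in deficient, 6.74 in sufficient and 4.62 in excess medium, and the change in excess medium differs from that in deficient medium in all 8 genes.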

How the data were processed

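Labelled RNA of 43 samples was hybridised to 1-colour Affymetrix Rat230_2 arrays. Values are the deposited log2 expression values, which the authors made with GCRMA per the submitters' processing notes, and which were used without further normalization. Of 31099 probe sets, 20826 had 1 gene symbol in the platform annotation, 436 several and 9780 no entry, and 57 controls were left out. Each gene took its brightest probe set, by the mean of all 43 arrays. Genes above 4 in at least 4 arrays were fitted with limma 3.58.1 (R 4.3.3) as 9 group means (34 residual degrees of freedom), with Benjamini-Hochberg adjustment over 9093 genes. The fit was tested on simulated data. The members and gene lists were chosen with earlier results of these data known. Named genes were the 10 highest and 10 lowest changes whose groups did not overlap, up to 4 called members of each list by size of change, a short set that was always named (such as Folr1, Shmt2 and Txnip), and the 8 highest and 8 lowest differences between media. Replicate numbers 2, 3, 5 and 6 occur on both days, with correlations of deviations of 0.18, -0.01, -0.06 and -0.07. So few values cannot settle whether the numbers pair the arrays, and the labels do not say. The number of arrays limits the precision, and the median half-width of a 95% interval was 0.21. Alternatives covered filters, scaling, probe set choice, covariates, weights, blocks and left-out arrays. A few items are not reported here.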

Additional observations from a re-analysis of the deposited data

Results flagged for a closer look

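Among 348 groups of 5 arrays (174 genes on 2 days), 14 held an array far from the other 4, where chance at 1 in 20 gives 17.4. On day 14, replicate 5 stood high in Car3 (5.90), Cyp2c11 (6.37), Mylk (11.47) and Rasl12 (6.10). Replicate 1 stood high in Nr4a3 (3.61) and low in Fbln2 (7.72) and Sdha (10.21). Ddit3 was low in replicate 2 (9.34) and Egr1 in replicate 3 (8.36). On day 21, Col3a1 was high in replicate 2 (11.38) and Smad9 in replicate 6 (6.01), while Insr was low in replicate 3 (7.81), Ezh1 in replicate 4 (6.49) and Folr1 in replicate 6 (4.47).

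The changes from day 14 to day 21 that differed most between media, by limma's test of the difference, are the following, and other named genes passed this test too. Against sufficient medium, the change of Myh3 was more positive in deficient medium by 0.94. Against excess medium it was more positive for Myh2 (2.82), Id2 (2.38), Id1 (2.34), Rasl12 (2.18), Prss35 (2.14), Rimklb (2.10), LOC100912310 (2.06) and Cyp2c11 (2.06). It was more negative for Col25a1 (-2.35), Insig1 (-1.95), Hsd11b1 (-1.87), Slc29a1 (-1.87), Apoc1 (-1.73), Pa2g4 (-1.62), Lum (-1.53) and Tns2 (-1.30).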

How the results depend on the processing

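The count of genes that differed between the days in deficient medium, 3530, ranged from 2847 (10 deficient arrays with a replicate block) to 4860 (array weights), and from 3061 to 3669 when single arrays were left out. With the replicate block over all arrays the counts were 3395 for the days, 2 against sufficient and 1092 against excess medium. The share of higher genes was 53.77%, and 49.19% with arrays centred on the median of tested genes. Against sufficient medium the count of 1 became 2 when the array series was a covariate, 2 without day 14 replicates 1 and 5, and 3 with array weights, with 1 to 2 when single arrays were left out. Myh3 was called in each. Against excess medium the count of 1341 became 2120 with array weights and 866 without the excess arrays of serials 53 to 56 (chosen after seeing the data, as was leaving out replicates 1 and 5), with 1085 to 1490 when single arrays were left out. Signs turned for Gla (-0.0691), Slc20a2 (-0.0512) and Tcf7l2 (-0.44) on the probe set with the highest variance, for Tcf7l2 (-0.14) with the median over probe sets and for Mthfd1 (0.0066) without replicates 1 and 5. List medians turned for endoplasmic reticulum chaperones (0.0136 with serials up to 45 or without day 14 replicate 5, -0.063 at the lowest when single arrays were left out, 0.0031 with array weights), insulin-like growth factors (-0.0149 with the stricter filter, -0.0051 without replicates 1 and 5), adhesion receptors (0.0041) and endothelial markers (0.0135), the last 2 with no filter. The cause was not tested. Of the other values for named genes, 4084 kept direction and side of the threshold, 73 lost the call and 8 gained one.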
